A study of Homo sapiens with 26 samples.

Results

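CLEC4E, IL4I1, PTX3 and PLEK are 4 genes known from innate immune cells, and their transcripts were higher in 786-O cells after knockdown of DDX39A than after a control siRNA. They were chosen by their normalized values, selected on being higher with both DDX39A siRNAs than in the controls, so those levels are given as a description with no test. They are 4 of 11679 genes in the table that holds DDX39A, and all 4 also stood in the other 2 tables, of 12140 and 11823 genes. 786-O is a human clear cell renal carcinoma line, grown here in RPMI medium with serum at atmospheric oxygen. Poly(A) RNA was sequenced from 26 libraries in 13 groups of 2, 48 h after transfection of an siRNA, with the cells split into fresh medium at 24 h. Each of 10 groups received 1 siRNA, with 2 siRNAs against each of DDX39A, SARNP, FIBP, TMEM259 and SART1, genes that the series names speckle protein genes. In the remaining 3 groups cells received a non-targeting siRNA (Qiagen Allstars Neg Ctrl), 1 group in the table of DDX39A and SARNP, 1 in that of FIBP and TMEM259 and 1 in that of SART1. All groups are the same line, carry no other alteration and received the same transfection reagent. The labels do not say that the libraries within a group derive from separate transfections, and p-values may therefore measure technical spread alone. The siRNA sequences are not given in the sources used here, so effects of an siRNA on other transcripts were not tested.

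The 4 proteins act at different steps of innate immunity. CLEC4E encodes Mincle, a C-type lectin receptor of macrophages and other myeloid cells that binds the mycobacterial cord factor and a nuclear protein released by dying cells. It signals through the Fc receptor gamma chain, SYK and CARD9 to NF-kB. IL4I1 encodes a secreted L-amino acid oxidase that breaks down aromatic amino acids, and some of its products activate the aryl hydrocarbon receptor AHR. PTX3 encodes the long pentraxin, a secreted pattern-recognition protein that binds microbes and the complement proteins C1q and factor H, and that many stromal cells make under inflammatory cytokines. PLEK encodes pleckstrin, the main protein kinase C substrate of platelets, which leukocytes also hold. DDX39A itself encodes a nuclear RNA helicase, and SARNP an RNA-binding protein, that take part in mRNA export.

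Values are the deposited counts per gene divided by the authors' size factor of the library, here called normalized values. They are not divided by gene length, so levels are compared between groups and not between genes, and only within a table. Libraries held 9959064 to 18086176 gene reads in the DDX39A and SARNP table, 8966609 to 17018483 in that of FIBP and TMEM259, and 21710821 to 26128173 in the SART1 table. The members rested on few reads, with 28 to 366 reads per library for CLEC4E, 38 to 434 for IL4I1, 158 to 1335 for PTX3 and 29 to 326 for PLEK. Each knocked-down gene was below both of its controls in all 10 siRNA groups, at 8.48% to 48.3% of the control mean. DDX39A stood at 451 and 447 with siRNA 1 and at 521 and 541 with siRNA 4, against 3273 and 3146 in the controls. Of 28 leukocyte markers 7 were among the genes of the DDX39A table. The defining markers PTPRC, CD53, TYROBP, SPI1 and CD14 were not among the genes of any table. Of 13 kidney carcinoma markers 11 were among the genes of the DDX39A table. CA9 and NDUFA4L2 were in none of the tables. In bulk RNA a change in the number of cells that express a gene and a change in RNA per cell cannot be told apart.

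The promoters of CLEC4E and PTX3 are shown because the levels of these genes moved in opposite directions with SARNP siRNA 9. Both are the 250 bases before the RefSeq start site in build GRCh38.p14, CLEC4E at chr12:8540906-8541155 on the minus strand and PTX3 at chr3:157436600-157436849 on the plus strand, written 5′ to 3′ along the gene. Capitals mark matches on either strand to the NF-kB motif GGNNNTTCC or the C/EBP motif TTNCNNAA.
CLEC4E: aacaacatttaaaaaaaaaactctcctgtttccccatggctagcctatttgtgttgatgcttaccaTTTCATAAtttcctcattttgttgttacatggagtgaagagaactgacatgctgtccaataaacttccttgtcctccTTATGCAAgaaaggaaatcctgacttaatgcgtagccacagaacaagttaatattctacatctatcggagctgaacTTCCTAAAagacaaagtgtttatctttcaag
PTX3: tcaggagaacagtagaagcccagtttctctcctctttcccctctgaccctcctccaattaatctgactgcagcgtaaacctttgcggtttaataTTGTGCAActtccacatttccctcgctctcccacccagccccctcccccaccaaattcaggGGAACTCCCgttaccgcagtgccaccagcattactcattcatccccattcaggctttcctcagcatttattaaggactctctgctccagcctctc
The CLEC4E stretch held 3 C/EBP matches, which began 184, 107 and 31 bases before the start. The PTX3 stretch held 1 NF-kB match 95 bases before the start and 1 C/EBP match 156 bases before it. For all 4 members a C/EBP match was found, which 33.2% of 35116 promoters of this length hold. That share was not matched for base composition, and G and C made up 36.4% of the CLEC4E stretch, 44.8% for PLEK, 51.6% for PTX3 and 61.6% for IL4I1. An NF-kB match was found for PTX3 and IL4I1 and in 17.1% of all promoters. No match was found in the 4 stretches to AP-1 (TGANTCA) or STAT (TTCNNNGAA), which 6.57% of all promoters each hold. None of the matches in the 2 stretches shown overlapped another. The RefSeq start of IL4I1 is one it shares with NUP62, a nuclear pore gene, so its stretch is not shown.

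After DDX39A knockdown every library of either siRNA lay above both control libraries for each of the 4 genes. CLEC4E had normalized values of 154 and 151 with siRNA 1 and of 294 and 249 with siRNA 4, against 79.6 and 90.8 in the controls. The 3 groups did not overlap, and the log2 differences to the controls were 0.84 and 1.66. Among 11673 genes ranked by the log2 difference, CLEC4E stood at place 120 with siRNA 1 and 47 with siRNA 4.

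IL4I1 had values of 209 and 191 with DDX39A siRNA 1 and of 387 and 348 with siRNA 4, against 74.3 and 94.0 in the controls. The oxidase gene thus showed the same order of groups as the receptor gene, with log2 differences of 1.25 and 2.12, at places 27 and 16. PTX3 had values of 792 and 736 with siRNA 1 and of 714 and 839 with siRNA 4, against 358 and 363 in the controls. Its libraries of the 2 siRNAs overlapped, both log2 differences were close to 1.1 (1.08 and 1.10), and its places were 51 and 170. PLEK had values of 68.7 and 84.8 with siRNA 1 and of 74.0 and 75.7 with siRNA 4, against 30.8 and 36.3 in the controls. The pleckstrin gene also overlapped between the siRNAs, with log2 differences of 1.17 and 1.14 and places 40 and 156.

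**Figure D1:**
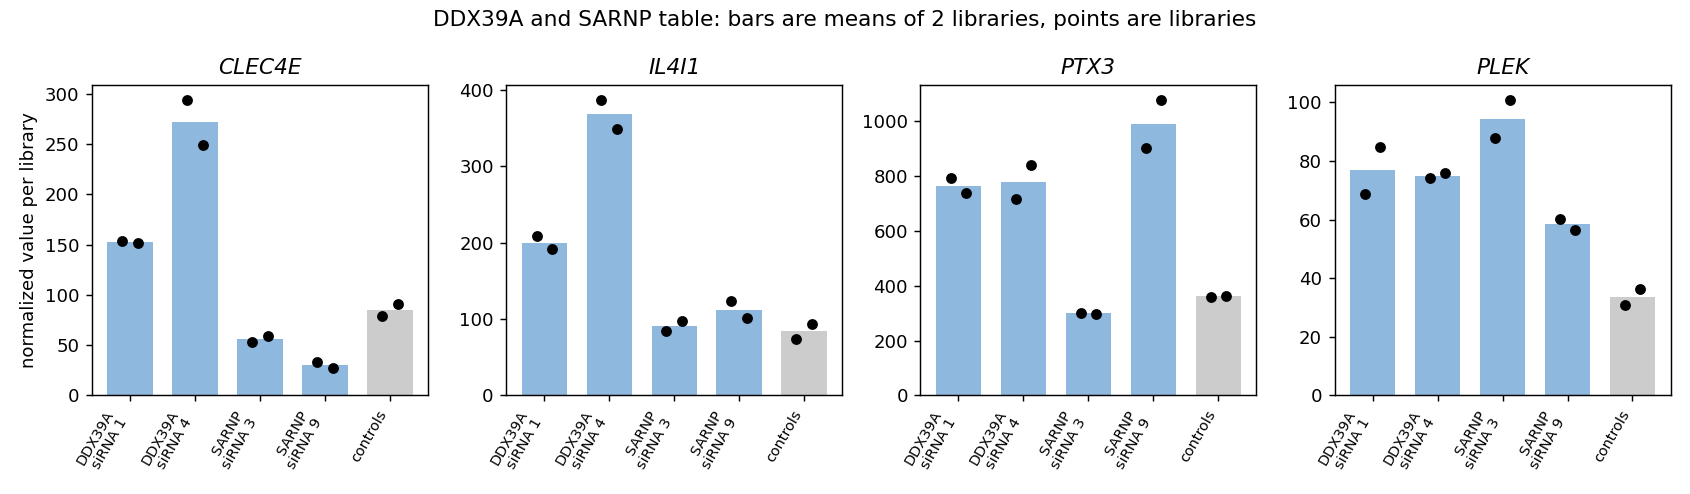
Normalized value per library (vertical axis) of CLEC4E, IL4I1, PTX3 and PLEK in the table of DDX39A and SARNP, with a bar for the mean of the 2 libraries (points) of each siRNA group and of the controls at the right. All DDX39A libraries lie above the controls, CLEC4E is lowest with SARNP siRNA 9 (33.8 and 27.8), and PTX3 is highest there (902 and 1076).

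Between the 2 DDX39A siRNAs CLEC4E and IL4I1 differed, and for PTX3 and PLEK no difference passed the test. This comparison uses the same knockdown libraries that chose the genes, but not the difference to the controls. With siRNA 4 over siRNA 1, CLEC4E was higher by a log2 difference of 0.82 (95% interval 0.51 to 1.14, limma adjusted p = 3.4e-05) and IL4I1 by 0.87 (0.60 to 1.15, limma adjusted p = 1.0e-06). PTX3 differed by 0.02 (95% interval -0.14 to 0.18, limma adjusted p = 0.85) and PLEK by -0.03 (-0.40 to 0.34, limma adjusted p = 0.91). These 2 of 4 calls compare with 50.6% of all tested genes called between the 2 siRNAs. DDX39A itself was at 14.0% of control with siRNA 1 and at 16.5% with siRNA 4. The leukocyte marker sum was also higher with siRNA 4 (8016 and 8396) than with siRNA 1 (2459 and 2479). With siRNA 1 that sum lay below its controls (3405 and 3410), whereas CLEC4E and IL4I1 lay above theirs. Most of that sum was LCP1, an actin-bundling protein that carcinoma lines also express, at 1956 and 2029 with siRNA 1 and at 7689 and 7386 with siRNA 4, against 2940 and 2923 in the controls. The part of LCP1 or of the marker sum in the result was not tested.

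SARNP knockdown asked what lowering another mRNA export factor did to the same genes, against the same 2 control libraries that served to choose them. Because the choice favoured genes low in these controls, it also favours rises over falls here. The p-values against these controls do not allow for that. The 4 genes did not all move one way. CLEC4E fell with both siRNAs, PLEK rose with both, PTX3 moved in opposite directions and IL4I1 rose with siRNA 9. At an adjusted p below 0.05, 3 of 4 were called with siRNA 3, where 41.3% of all tested genes were called, and 4 of 4 with siRNA 9, where 58.4% were.

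CLEC4E had values of 53.2 and 58.8 with SARNP siRNA 3 and of 33.8 and 27.8 with siRNA 9, against 79.6 and 90.8 in the controls. All SARNP libraries were below both controls, with a fall by 0.59 on the log2 scale with siRNA 3 (SE 0.16, limma adjusted p = 0.0023) and by 1.44 with siRNA 9 (SE 0.16, limma adjusted p = 4.9e-10). PLEK had values of 87.7 and 101 with siRNA 3 and of 60.1 and 56.5 with siRNA 9, against 30.8 and 36.3 in the controls. Pleckstrin mRNA was higher in each SARNP library than in either control, by log2 1.47 with siRNA 3 (SE 0.18, limma adjusted p = 2.5e-08) and 0.78 with siRNA 9 (SE 0.18, limma adjusted p = 0.00037). Of all tested genes 7.17% rose with both SARNP siRNAs and 7.15% fell with both. The leukocyte marker sum was 1958 and 1977 with siRNA 3 and 2705 and 2766 with siRNA 9, against 3405 and 3410 in the controls, below them with both siRNAs as CLEC4E was. The kidney carcinoma marker sum was also below its controls, at 70780 and 71742 with siRNA 3 and at 60120 and 63880 with siRNA 9, against 79347 and 82464 in the controls. Most of the kidney sum was VIM (vimentin), with a control mean of 60578. Of the 11 kidney markers 2 rose and 1 fell with both SARNP siRNAs, with a median log2 difference of 0.03. The part of either sum in these results was not tested.

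PTX3 had values of 302 and 295 with SARNP siRNA 3 and of 902 and 1076 with siRNA 9, against 358 and 363 in the controls. The long pentraxin fell by 0.27 on the log2 scale with siRNA 3 (SE 0.08, limma adjusted p = 0.0051) and rose by 1.45 with siRNA 9 (SE 0.08, limma adjusted p = 2.3e-18). The call with siRNA 3 was lost with DESeq2 (adjusted p = 0.074). IL4I1 had values of 84.5 and 97.7 with siRNA 3 and of 124 and 101 with siRNA 9, against 74.3 and 94.0 in the controls. Its libraries overlapped the controls with siRNA 3 (log2 0.12, 95% interval -0.15 to 0.39, limma adjusted p = 0.51). With siRNA 9 both libraries were above the controls, and IL4I1 rose by log2 0.42 (SE 0.13, limma adjusted p = 0.0080). That call was lost without the first siRNA 9 library (log2 0.27, limma adjusted p = 0.16), without the first control library (0.25, limma adjusted p = 0.19) and with DESeq2 (0.43, adjusted p = 0.057).

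Between the SARNP siRNAs the differences of 3 genes passed the test, where 64.1% of all tested genes did. With siRNA 9 over siRNA 3, PTX3 was higher by log2 1.72 (95% interval 1.56 to 1.88, limma adjusted p = 6.3e-21), a 3.31-fold difference. CLEC4E was lower, at log2 -0.85 (limma adjusted p = 1.3e-05), and so was PLEK, at -0.68 (limma adjusted p = 0.0014). IL4I1 did not pass at 0.30 (95% interval 0.02 to 0.57, limma adjusted p = 0.052), but did without the second siRNA 9 library (0.44, limma adjusted p = 0.019) or the second siRNA 3 library (0.40, limma adjusted p = 0.033). SARNP itself stood at 13.5% of control with siRNA 3 and at 8.48% with siRNA 9.

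Reads of 2 members can overlap another gene. In the GENCODE annotation used here, PTX3 lies within VEPH1 on the opposite strand, and 71 of its 1940 exon bases (3.66%) are also exon bases of VEPH1. IL4I1 shares 336 of its 2563 exon bases (13.1%) with NUP62 on the same strand. The libraries keep strand, but whether strand was used in counting is not stated. VEPH1, which encodes a pleckstrin homology domain protein, rose with SARNP siRNA 9 by log2 1.26 (limma adjusted p = 3.3e-11), where PTX3 also rose. With DDX39A siRNA 1 VEPH1 fell by 0.32 on the log2 scale (limma adjusted p = 0.041), and with siRNA 4 it rose by 0.33 (limma adjusted p = 0.023), while PTX3 stood near 1.1 with both. With FIBP siRNA 6, where PTX3 was highest in its table, VEPH1 was at -0.28 (limma adjusted p = 0.13). VEPH1 fell by 0.58 with TMEM259 siRNA 6 (limma adjusted p = 0.0015), where PTX3 was at -0.26 (limma adjusted p = 0.086). NUP62 fell by 0.16 with DDX39A siRNA 1 (limma adjusted p = 0.016) and was at 0.11 with siRNA 4 (limma adjusted p = 0.097), beside 1.25 and 2.12 for IL4I1. How far shared reads entered the members' counts was not tested.

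FIBP encodes a protein that binds fibroblast growth factor, and TMEM259 a membrane protein. Their 4 siRNAs share 2 control libraries that had no part in the choice of the genes. With both targets 1 siRNA raised 3 of the 4 genes and the other called none of them. Of all tested genes 22.6% were called with FIBP siRNA 6, 34.1% with FIBP siRNA 7, 22.8% with TMEM259 siRNA 5 and 19.4% with TMEM259 siRNA 6.

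PTX3 had values of 468 and 481 with FIBP siRNA 6 and of 222 and 198 with FIBP siRNA 7, against 168 and 202 in the controls. The siRNA 6 libraries were above all others of the table, and PTX3 rose by log2 1.36 (SE 0.11, limma adjusted p = 8.9e-14), the 4th largest increase of 11768 genes. With siRNA 7 the libraries overlapped the controls (0.18, 95% interval -0.03 to 0.40, limma adjusted p = 0.20). CLEC4E had values of 122 and 133 with FIBP siRNA 6 and of 51.0 and 50.7 with FIBP siRNA 7, against 62.5 and 71.8 in the controls. The lectin receptor rose with siRNA 6 by log2 0.92 (SE 0.17, limma adjusted p = 3.4e-05). With siRNA 7 both libraries were below the controls, but the difference of -0.39 did not pass (95% interval -0.73 to -0.06, limma adjusted p = 0.064).

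IL4I1 had values of 94.5 and 76.9 with FIBP siRNA 6 and of 52.4 and 70.0 with FIBP siRNA 7, against 46.6 and 40.6 in the controls. All knockdown libraries were above both controls. IL4I1 rose with siRNA 6 by log2 0.95 (SE 0.19, limma adjusted p = 0.00018). With siRNA 7 the difference was 0.47 (95% interval 0.08 to 0.86, limma adjusted p = 0.056), and it passed without the first siRNA 7 library (0.67, limma adjusted p = 0.020) or with quantile normalization (0.55, limma adjusted p = 0.026). PLEK had values of 68.8 and 57.7 with FIBP siRNA 6 and of 53.7 and 34.5 with FIBP siRNA 7, against 45.6 and 58.6 in the controls. Both groups overlapped the controls, at log2 0.28 (95% interval -0.13 to 0.69, limma adjusted p = 0.36) and -0.26 (-0.67 to 0.16, limma adjusted p = 0.36).

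All 4 genes were lower with FIBP siRNA 7 than with siRNA 6, where 35.7% of all tested genes were called. The differences of CLEC4E (log2 -1.31, limma adjusted p = 1.5e-08) and PTX3 (-1.17, limma adjusted p = 2.6e-12) kept their calls in every alternative fit. Those of IL4I1 (-0.49, limma adjusted p = 0.044) and PLEK (-0.54, limma adjusted p = 0.037) did not. IL4I1 was at -0.28 without the first siRNA 7 library (limma adjusted p = 0.38) and at -0.34 without the first siRNA 6 library (limma adjusted p = 0.32). PLEK was at -0.22 without the second siRNA 7 library (limma adjusted p = 0.51), at -0.41 without the first siRNA 6 library (limma adjusted p = 0.24) and at -0.85 without the first siRNA 7 library (limma adjusted p = 0.0036). FIBP stood at 11.0% of control with siRNA 6 and at 17.1% with siRNA 7. The leukocyte marker sum was 3116 and 3149 with siRNA 6 and 3320 and 3383 with siRNA 7, against 3105 and 3222 in the controls, and its part in these results was not tested. Of all tested genes 4.68% rose with both FIBP siRNAs and 4.39% fell with both, and 0 of the 4 did either.

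With TMEM259 siRNA 5 CLEC4E, PLEK and IL4I1 rose, and PTX3 did not pass. CLEC4E had values of 166 and 138 with TMEM259 siRNA 5 and of 47.9 and 56.1 with TMEM259 siRNA 6, against 62.5 and 71.8 in the controls. The siRNA 5 libraries were above and the siRNA 6 libraries below both controls, at log2 1.17 (SE 0.17, limma adjusted p = 6.3e-07) and -0.36 (95% interval -0.70 to -0.03, limma adjusted p = 0.12). PLEK had values of 86.5 and 95.5 with siRNA 5 and of 62.9 and 51.3 with siRNA 6, against 45.6 and 58.6 in the controls. Pleckstrin mRNA was above all controls with siRNA 5 (log2 0.80, SE 0.21, limma adjusted p = 0.0031) and overlapped them with siRNA 6 (0.13, 95% interval -0.28 to 0.55, limma adjusted p = 0.72). The call with siRNA 5 was lost without its second library (0.73, limma adjusted p = 0.052) and without the first control (0.62, limma adjusted p = 0.094).

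IL4I1 had values of 69.9 and 64.8 with TMEM259 siRNA 5 and of 53.9 and 52.9 with TMEM259 siRNA 6, against 46.6 and 40.6 in the controls. It rose with siRNA 5 by log2 0.62 (SE 0.19, limma adjusted p = 0.016) and was at 0.29 with siRNA 6 (95% interval -0.10 to 0.68, limma adjusted p = 0.32), with no overlap of either group with the controls. The rise with siRNA 5 was lost without its first library (0.56, limma adjusted p = 0.11), without its second (0.67, limma adjusted p = 0.052), without the second control (0.52, limma adjusted p = 0.13) and with DESeq2 (0.64, adjusted p = 0.13). PTX3 had values of 213 and 186 with siRNA 5 and of 158 and 151 with siRNA 6, against 168 and 202 in the controls. Its siRNA 5 libraries overlapped the controls (0.11, 95% interval -0.11 to 0.32, limma adjusted p = 0.52) and its siRNA 6 libraries were below them (-0.26, -0.48 to -0.04, limma adjusted p = 0.086). Without the first control PTX3 passed with siRNA 6 (-0.39, limma adjusted p = 0.039).

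With TMEM259 siRNA 5 over siRNA 6, 3 of 4 genes were called higher, where 32.1% of all tested genes were called. CLEC4E differed by log2 1.53 (95% interval 1.19 to 1.86, limma adjusted p = 7.2e-10), the 9th largest increase of 11768 genes. PLEK differed by 0.67 (limma adjusted p = 0.010) and PTX3 by 0.37 (limma adjusted p = 0.0069), and IL4I1 by 0.33 (95% interval -0.06 to 0.72, limma adjusted p = 0.20). The call of PLEK was lost without the second siRNA 5 library (0.60, limma adjusted p = 0.093) or the second siRNA 6 library (0.52, limma adjusted p = 0.13). That of PTX3 was lost without the first siRNA 5 library (0.27, limma adjusted p = 0.13) or the second siRNA 6 library (0.33, limma adjusted p = 0.058). TMEM259 was left at 30.3% of control with siRNA 5 and at 48.3% with siRNA 6. Of all tested genes 2.56% rose with both TMEM259 siRNAs and 2.41% fell with both, and 0 of the 4 did either. The leukocyte marker sum was 4180 and 4451 with siRNA 5 and 2829 and 2923 with siRNA 6, against 3105 and 3222 in the controls, and its part in these results was not tested.

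**Figure D2:**
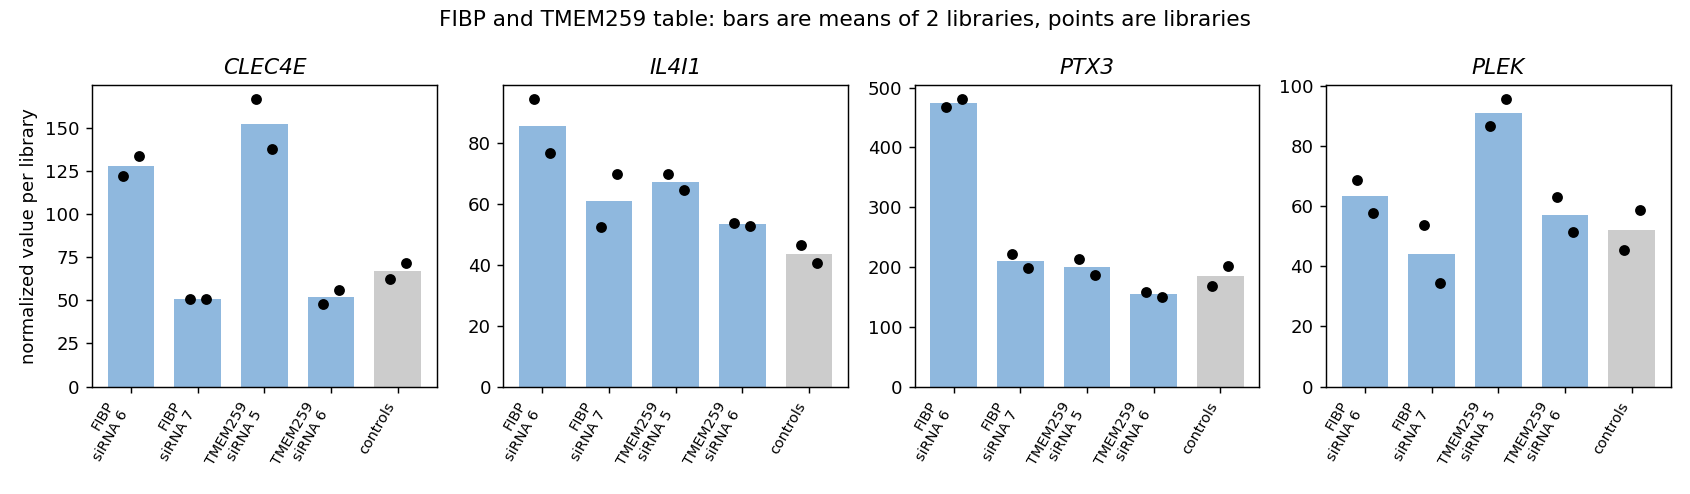
Normalized value per library (vertical axis) of the 4 genes in the table of FIBP and TMEM259, with a bar for the mean of the 2 libraries (points) of each siRNA group and of the controls at the right. PTX3 is highest with FIBP siRNA 6 (468 and 481), and CLEC4E with TMEM259 siRNA 5 (166 and 138) and FIBP siRNA 6 (122 and 133).

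SART1 encodes a factor needed for assembly of the spliceosome, and its siRNAs have control libraries of their own. CLEC4E, IL4I1 and PTX3 rose with both siRNAs and PLEK with siRNA 6. The background was high, with 57.7% of all tested genes called with siRNA 4 and 62.9% with siRNA 6, and with 22.9% higher and 20% lower with both.

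CLEC4E had values of 259 and 267 with SART1 siRNA 4 and of 351 and 329 with siRNA 6, against 191 and 200 in the controls. The 3 groups did not overlap, and the log2 differences to the controls were 0.43 (SE 0.09, limma adjusted p = 0.00038) and 0.79 (SE 0.09, limma adjusted p = 9.0e-08). PTX3 had values of 756 and 817 with siRNA 4 and of 915 and 888 with siRNA 6, against 538 and 598 in the controls. The pentraxin kept the same order without overlap, at 0.47 (SE 0.07, limma adjusted p = 1.5e-06) and 0.67 (SE 0.07, limma adjusted p = 5.2e-09).

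IL4I1 had values of 210 and 182 with SART1 siRNA 4 and of 206 and 214 with siRNA 6, against 131 and 156 in the controls. The siRNA groups overlapped each other and not the controls, at log2 0.45 (SE 0.12, limma adjusted p = 0.0023) and 0.55 (SE 0.12, limma adjusted p = 0.00027). The call with siRNA 4 was lost without the first control (0.32, limma adjusted p = 0.052). PLEK had values of 172 and 176 with siRNA 4 and of 312 and 309 with siRNA 6, against 163 and 210 in the controls. Pleckstrin mRNA overlapped the controls with siRNA 4 (-0.09, 95% interval -0.32 to 0.15, limma adjusted p = 0.54) and rose with siRNA 6 (0.75, SE 0.11, limma adjusted p = 3.9e-06).

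With SART1 siRNA 4 over siRNA 6, 3 of the 4 genes were lower, where 38.5% of all tested genes were called. PLEK differed by log2 -0.83 (limma adjusted p = 2.7e-06), CLEC4E by -0.37 (limma adjusted p = 0.0029) and PTX3 by -0.20 (limma adjusted p = 0.019). The PTX3 call was lost without the first siRNA 4 library (-0.14, limma adjusted p = 0.16), without the first siRNA 6 library (-0.18, limma adjusted p = 0.12), without the second siRNA 6 library (-0.22, limma adjusted p = 0.054) and with DESeq2 (-0.20, adjusted p = 0.098). IL4I1 differed by -0.10 (95% interval -0.35 to 0.14, limma adjusted p = 0.52). SART1 stood at 33.3% of control with siRNA 4 and at 26.8% with siRNA 6. The leukocyte marker sum was 4400 and 4794 with siRNA 4 and 7275 and 7383 with siRNA 6, against 4493 and 4650 in the controls, and its part in these results was not tested.

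**Figure D3:**
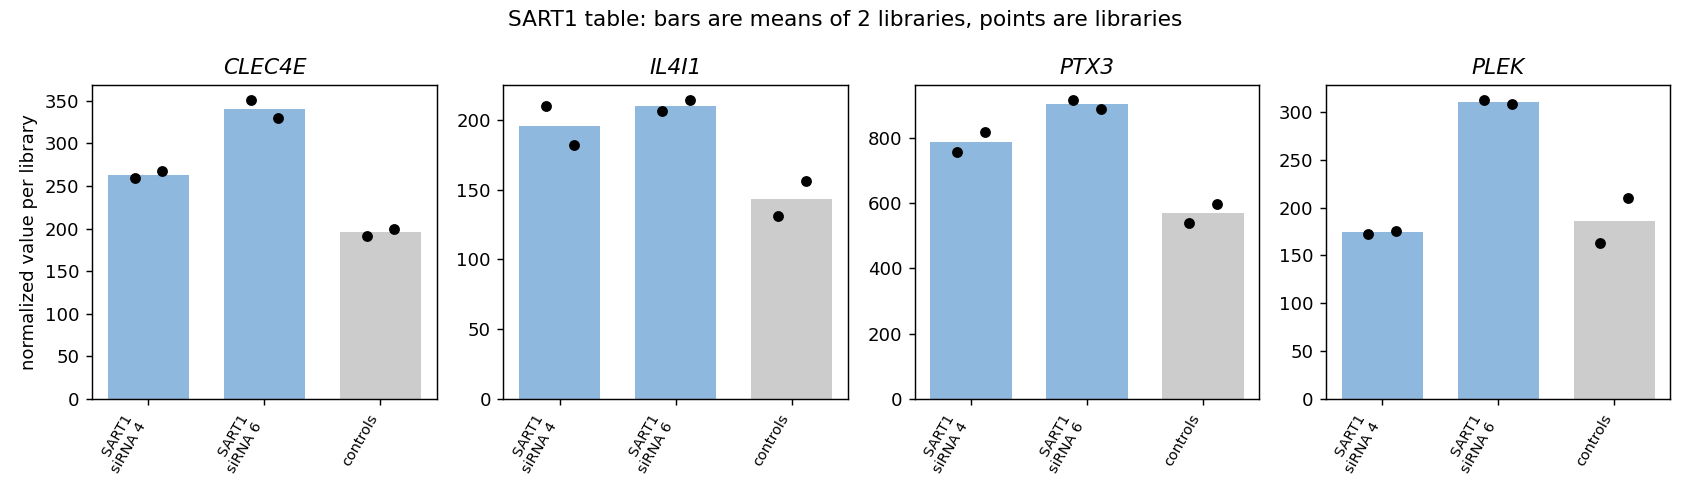
Normalized value per library (vertical axis) of the 4 genes in the SART1 table, with a bar for the mean of the 2 libraries (points) of each siRNA group and of the controls at the right. CLEC4E and PTX3 are highest with siRNA 6 (351 and 329, and 915 and 888), and PLEK with siRNA 4 (172 and 176) overlaps its controls (163 and 210).

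Set side by side, the 10 siRNAs gave the 4 genes different profiles. CLEC4E ranged from -1.44 with SARNP siRNA 9 to 1.66 with DDX39A siRNA 4 on the log2 scale. IL4I1 ranged from 0.12 with SARNP siRNA 3 (-0.05 without the first control library) to 2.12 with DDX39A siRNA 4. PTX3 ranged from -0.27 with SARNP siRNA 3 to 1.45 with SARNP siRNA 9, and PLEK from -0.26 with FIBP siRNA 7 to 1.47 with SARNP siRNA 3. The largest differences of PTX3 and PLEK thus stood with SARNP siRNAs and not with DDX39A siRNAs, although the genes were chosen for the DDX39A siRNAs. These values were computed within 3 tables that were normalized apart.

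**Figure D4:**
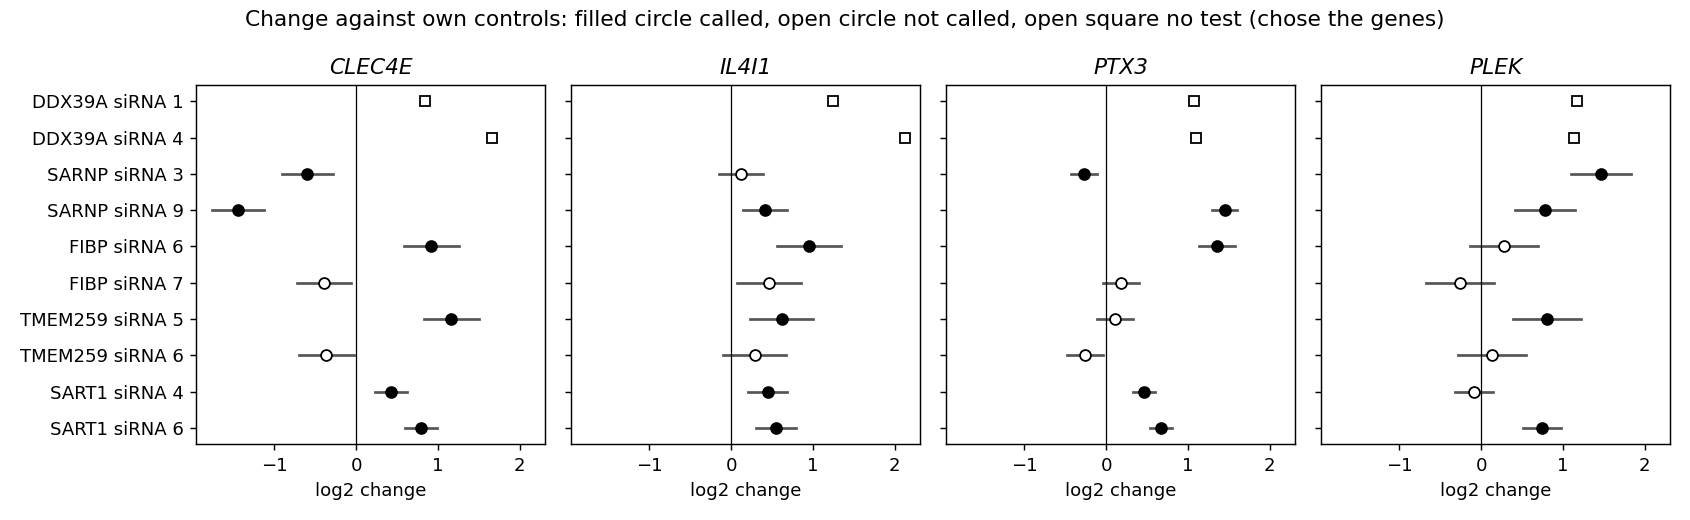
Log2 change of each gene (horizontal axis) with each of the 10 siRNAs against the controls of its own table, with 95% intervals from limma as lines. Filled circles passed the adjusted p of 0.05, open circles did not, and open squares are the DDX39A siRNAs, which chose the genes and have no test. CLEC4E lies at -1.44 with SARNP siRNA 9, where PTX3 lies at 1.45.

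**Figure D5:**
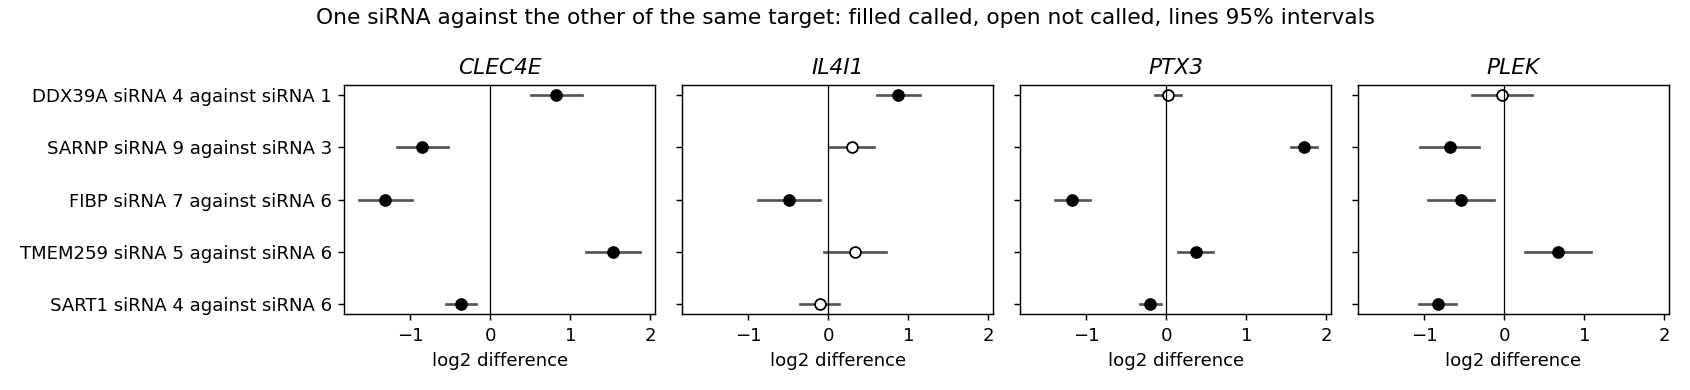
Log2 difference of each gene (horizontal axis) between the 2 siRNAs of a target, with the 95% interval from limma as a line. Filled points passed the adjusted p of 0.05 and open points did not, as for PTX3 (0.02) and PLEK (-0.03) between DDX39A siRNAs, while CLEC4E passed for all 5 targets.

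The genes around the members in their pathways were counted in 8 lists, with the members taken out, and 2 further lists held cell type markers. A gene was counted when both siRNAs of a target called it with the same sign. With DDX39A, 8.67% of all tested genes rose in this sense and 6.37% fell. The lists and the members come from the same contrast, so these counts are a description. Most genes named from the lists were picked because both DDX39A siRNAs called them. Their adjusted p-values with DDX39A restate that choice and are no further test.

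Beside CLEC4E, other C-type lectins and the signalling parts through which such receptors act did not move as a group. With DDX39A 0 of 13 rose and 0 fell, and the median log2 difference of the mean of both siRNAs was 0.03, against -0.0019 for all genes. The receptor's kinase SYK was at -0.16 and -0.54 and its adaptor CARD9 at 0.26 and -0.21 with siRNA 1 and siRNA 4. Of 26 Toll-like receptors and intracellular sensors 3 rose and 0 fell (median 0.13). They were TMEM173, the sensor adaptor STING, at 0.49 and 0.92, the kinase IRAK2 at 0.45 and 0.27, and the interferon regulator IRF3 at 0.25 and 0.16.

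NF-kB factors and targets, the list with the most tested genes, also held the most calls. With DDX39A 10 of 29 were higher and 1 lower (median 0.31), beside 8.67% and 6.37% of all genes. CCL2, a monocyte chemokine, had values of 129 and 124 with DDX39A siRNA 1 and of 181 and 157 with siRNA 4, against 56.2 and 61.9 in the controls. All DDX39A libraries were above both controls for CCL2, and its rise passed with siRNA 1 (limma adjusted p = 4.7e-06) and siRNA 4 (limma adjusted p = 2.9e-09). ICAM1, a leukocyte adhesion molecule, rose by 0.88 with siRNA 1 and 0.58 with siRNA 4, the NF-kB subunit RELB by 0.81 and 0.55, and the NF-kB inhibitor TNFAIP3 by 0.76 and 0.56. With SARNP, where CLEC4E fell, 1 of 29 rose and 7 fell (median -0.32), beside 7.17% and 7.15% of all genes. With FIBP 5 of 29 rose and 0 fell, beside 4.68% and 4.39% of all genes, and with TMEM259 1 rose and 1 fell, beside 2.56% and 2.41%. For SART1 21 of 30 rose and 0 fell, beside 22.9% and 20% of all genes.

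Among 15 transcription factors of myeloid and inflammatory genes 4 rose and 1 fell with DDX39A (median 0.12). CEBPD, a C/EBP family factor, had values of 190 and 156 with siRNA 1 and of 166 and 126 with siRNA 4, against 84.9 and 81.2 in the controls. It rose by log2 1.04 and 0.79 (limma adjusted p = 7.4e-07 and 3.0e-05). IRF1, an interferon regulatory factor, rose by 0.79 and 0.36 and FOSL1, an AP-1 subunit, by 0.12 and 0.15, while RUNX1 fell by 0.15 and 0.32. With SARNP CEBPD was at -0.09 with siRNA 3 and at 0.27 with siRNA 9, and neither passed. Over the list 1 of 15 rose and 5 fell with SARNP, beside 7.17% and 7.15% of all genes. The counts were 2 and 0 with FIBP, beside 4.68% and 4.39%, and 0 and 0 with TMEM259, beside 2.56% and 2.41%. For SART1 they were 5 and 1, beside 22.9% and 20%.

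Beside PTX3, 3 of 8 pentraxins, complement and other soluble recognition proteins rose with DDX39A and 1 fell (median 0.21). NPTXR, the neuronal pentraxin receptor, had values of 148 and 118 with siRNA 1 and of 266 and 276 with siRNA 4, against 85.9 and 92.9 in the controls (log2 0.56 and 1.59). The complement component C3 rose by 0.46 and 0.92, and TNFAIP6, a hyaluronan-binding protein that binds PTX3, by 1.02 and 0.26. CD55, which limits complement on the cell surface, fell by 0.21 and 0.83. With SARNP siRNA 9, where PTX3 rose, NPTXR also rose, by 0.99, while TNFAIP6 fell by 0.80 and C3 by 0.57. NPTXR rose by 1.19 and TNFAIP6 by 0.94 with SARNP siRNA 3, where PTX3 fell by 0.27, and C3 was at -0.09.

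Of 10 other genes for breakdown of tryptophan and aromatic amino acids 0 rose and 1 fell with DDX39A (median 0.07), namely the kynurenine formamidase AFMID at -0.54 and -0.57. Of AHR and its target genes 1 of 8 rose, ARNT2, a paralog of the AHR partner ARNT, at 0.44 and 0.48, and 0 fell (median -0.01). The AHR targets CYP1B1 and TIPARP, the first a cytochrome and the second an ADP-ribosyltransferase, were at 0.50 and -0.39 and at 0.17 and -0.52, higher with siRNA 1 and lower with siRNA 4. NQO1 of the same list went the other way, at -0.20 with siRNA 1 and 0.28 with siRNA 4. IL4I1 was higher with both.

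Beside PLEK, 2 of 7 pleckstrins and protein kinase C genes rose with DDX39A and 0 fell (median 0.29). PLEK2, the paralog of PLEK, had values of 551 and 529 with siRNA 1 and of 515 and 527 with siRNA 4, against 315 and 302 in the controls. It rose by log2 0.81 and 0.75 (limma adjusted p = 4.5e-11 and 6.5e-11), and the kinase PRKCE by 0.48 and 0.42. PLEK2 also rose with SARNP siRNA 3 (0.29) and siRNA 9 (1.23), the reverse of the order of PLEK, which stood at 1.47 and 0.78. CLEC4D, NPTX1, NPTX2, CRP and IDO1, also looked up as related genes, were not among the genes of any table.

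Of 7 leukocyte markers 0 rose and 0 fell with both DDX39A siRNAs (median 0.40). LCP1 fell by 0.56 with siRNA 1 and rose by 1.36 with siRNA 4, and CSF1R, the receptor of macrophage colony-stimulating factor, fell by 1.20 and rose by 0.69. CD68, CD74 and ITGB2 passed with 1 siRNA only, and CORO1A and LAPTM5 with neither. Of 11 kidney carcinoma markers 6 rose and 1 fell (median 0.26), led by the cadherin CDH6 at 1.05 and 1.27, VCAM1 at 0.62 and 0.65 and PAX2 at 0.50 and 0.53. The summed kidney markers stood at 76049 and 80089 with siRNA 1 and at 81071 and 84158 with siRNA 4, against 79347 and 82464 in the controls. Most of that sum was VIM, the intermediate filament vimentin, with a control mean of 60578, so it says little of the other markers. VIM fell by 0.15 and 0.14 on the log2 scale.

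Over the 10 libraries of the DDX39A and SARNP table, CLEC4E and IL4I1 had a Pearson r of 0.82 on log2 values, while the other pairs of members had an r of 0.10 to 0.58. These are descriptions over libraries that share groups, and the choice of the genes raises them. Among 10249 genes with a mean of at least 50, the 5 most like CLEC4E included CCL2, MYADM, TNIP1 and C3 (each with an r of 0.98). Those most like IL4I1 were PDLIM5, ECE1, C6orf62, SIRPA and PGBD5 (0.97 to 0.98), those most like PTX3 were PTK2, ELL, PLAGL2, ABHD5 and COG1 (0.98 to 0.99), and those most like PLEK were CUL7, RNF149, PIP4K2A, GNPNAT1 and NRBP1 (0.95 to 0.97). No gene stood in 2 of these lists. Over the log2 changes of the 10 siRNAs in all tables the leading genes were MSC-AS1 for CLEC4E (r 0.96), LIMD2 for IL4I1 (0.96), NDUFA6 for PTX3 (0.91) and DCLK1 for PLEK (0.94). ECE1 and SIRPA for IL4I1 and PIP4K2A for PLEK were among the 5 closest by both measures.

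The nearest measured genes on the chromosome were compared in the same way, apart from NUP62 and VEPH1, which are given above. Beside CLEC4E, LINC02449 was at log2 -0.07 and 0.30 and RIMKLB at 0.15 and -0.05 with DDX39A siRNA 1 and siRNA 4, and none of these passed. Beside PTX3, CCNL1 was at -0.01 and -0.11 and SHOX2 at -0.16 and -0.23, and none of these passed. Beside PLEK, CNRIP1 fell by 0.25 and 0.45, and FBXO48 fell by 0.70 with siRNA 1 and was at -0.42 with siRNA 4. Beside IL4I1, VRK3 rose by 0.29 and 0.38, TBC1D17 was at 0.21 with siRNA 1 and rose by 0.53 with siRNA 4, and ATF5, which overlaps IL4I1, fell by 0.67 with siRNA 1 and was at 0.00 with siRNA 4.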

How the data were processed

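Poly(A) RNA of 26 libraries was read as paired ends of 42 bases from directional libraries, per the labels' protocols. Each deposited value is a normalized signal: a gene's count that the authors divided by the size factor of its library, as the recovered steps below show. Per the submitters' processing notes, build hg19, STAR, Picard, HTSeq and DESeq2 were named, without versions or roles, and the annotation and the strand counted are not given in the sources used here. In every library 100% of values were whole multiples of 1 step (tolerance 0.0001 of a read), which gave reads for the count tests run as alternatives. Ambiguous reads (1.57% to 1.82%) and reads without a gene (5.79% to 9.02%) were left out. Columns not used numbered 0.

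Genes with a table mean of at least 10 were tested, 11673, 11768 and 11823 in the tables of DDX39A and SARNP, FIBP and TMEM259, and SART1. Log2(value + 1) was fitted with 1 mean per group in each table with limma 3.58.1 (eBayes with trend) in R 4.3.3, with 5, 5 and 3 residual degrees of freedom. Log2 differences are on this scale, which understates those of low genes. Intervals and SE come from the same fit. A gene was called at a two-sided Benjamini-Hochberg adjusted p below 0.05 over all tested genes of the table. The script was tested on simulated data. Depth per library is given with the results. Replicates of a group differed by more than counting error (chi-square per degree of freedom between 1.52 and 2.93).

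The 4 genes and all lists were chosen with earlier results of these data known. Named genes were the members, genes that overlap or neighbour them, paralogs and other related genes, and the 5 genes most like each member. Up to 4 genes per list called with both DDX39A siRNAs in 1 direction were also named (largest mean change first). SYK, CARD9, CYP1B1, TIPARP, NQO1, VIM and the leukocyte markers were named outside this rule, after their values were seen. A few genes that meet this rule are not reported here. Promoters are from RefSeq (GRCh38.p14), where all 4 members matched by symbol, and exon overlap is from GENCODE. Alternatives were a pseudocount of 5, quantile normalization, no filter, a minimum mean of 50, DESeq2 1.42.0, edgeR 4.0.16 with TMM scaling, a fit of the compared groups alone, a replicate block and leaving out each library.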

Additional observations from a re-analysis of the deposited data

Results flagged for a closer look

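For all 5 targets the 2 siRNAs differed in some of the 4 genes by the test of the difference itself (limma, adjusted p below 0.05 over all genes of the table). With DDX39A siRNA 4 over siRNA 1, CLEC4E differed by log2 0.82 and IL4I1 by 0.87. With SARNP siRNA 9 over siRNA 3, CLEC4E differed by -0.85, PTX3 by 1.72 and PLEK by -0.68. With FIBP siRNA 7 over siRNA 6, CLEC4E differed by -1.31, IL4I1 by -0.49, PTX3 by -1.17 and PLEK by -0.54. With TMEM259 siRNA 5 over siRNA 6, CLEC4E differed by 1.53, PTX3 by 0.37 and PLEK by 0.67. With SART1 siRNA 4 over siRNA 6, CLEC4E differed by -0.37, PTX3 by -0.20 and PLEK by -0.83. These 15 of 20 comparisons stand beside 32.1% to 64.1% of all tested genes called between the siRNAs of a target, and which siRNA reflects its target was not tested.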

How the results depend on the processing

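When the 52 member tests were repeated under the alternatives, 572 repeats kept their direction and their side of the threshold, 30 lost the call, 7 gained one and 10 changed sign, all 10 for differences that passed neither way. DESeq2 gave no adjusted p for CLEC4E, IL4I1 and PLEK with FIBP siRNA 6 or for IL4I1 and PLEK with TMEM259 siRNA 6, so the calls of CLEC4E and IL4I1 with FIBP siRNA 6 have no DESeq2 check. The 96 repeats of the 8 DDX39A differences stayed on the same side of 0. With DESeq2 calls were lost for PTX3 with SARNP siRNA 3 (-0.27), IL4I1 with SARNP siRNA 9 (0.43), IL4I1 with TMEM259 siRNA 5 (0.64), IL4I1 (-0.48) and PLEK (-0.55) between the FIBP siRNAs, PTX3 (0.39) and PLEK (0.68) between the TMEM259 siRNAs and PTX3 (-0.20) between the SART1 siRNAs. With quantile normalization IL4I1 gained calls between the SARNP siRNAs (0.38) and with FIBP siRNA 7 (0.55), IL4I1 (-0.45) and PLEK (-0.50) lost them between the FIBP siRNAs, and PLEK with SART1 siRNA 4 changed sign (0.052). With edgeR IL4I1 gained a call between the SARNP siRNAs (0.33), and with the compared groups alone PLEK lost one between the FIBP siRNAs (-0.54). The cause of these changes was not tested.

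Leaving out 1 library at a time gave ranges of 0.25 to 0.58 for IL4I1 with SARNP siRNA 9, 0.15 to 0.44 for IL4I1 between the SARNP siRNAs, 0.26 to 0.67 for IL4I1 with FIBP siRNA 7, and -0.69 to -0.28 for IL4I1 and -0.85 to -0.22 for PLEK between the FIBP siRNAs. The ranges were 0.52 to 0.71 for IL4I1 and 0.62 to 0.98 for PLEK with TMEM259 siRNA 5, -0.39 to -0.13 for PTX3 with TMEM259 siRNA 6, and 0.27 to 0.46 for PTX3 and 0.52 to 0.81 for PLEK between the TMEM259 siRNAs. They were 0.32 to 0.57 for IL4I1 with SART1 siRNA 4 and -0.25 to -0.14 for PTX3 between the SART1 siRNAs. The sign changed for IL4I1 with SARNP siRNA 3 (-0.048 to 0.29, negative without the first control), for PTX3 (-0.10 to 0.14, negative without the second library of either siRNA) and PLEK (-0.18 to 0.12, positive without the second siRNA 1 library) between the DDX39A siRNAs, and for PLEK with FIBP siRNA 7 (-0.57 to 0.055, positive without its second library). It also changed for PTX3 with TMEM259 siRNA 5 (-0.024 to 0.24, negative without the first control), PLEK with TMEM259 siRNA 6 (-0.045 to 0.31, negative without its first library or the first control) and PLEK with SART1 siRNA 4 (-0.27 to 0.10, positive without the second control). A lone remaining library was assumed to vary like the other groups.

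Counts of called genes fell by over 1.5 times with DESeq2, to 2441 from 3874 for DDX39A siRNA 1, 1544 from 2660 for FIBP siRNA 6, 2515 from 4009 for FIBP siRNA 7, 1552 from 2684 for TMEM259 siRNA 5, 1246 from 2282 for TMEM259 siRNA 6, 2624 from 4197 between the FIBP siRNAs, 2424 from 3776 between the TMEM259 siRNAs and 2949 from 4553 between the SART1 siRNAs. Without 1 library they were 1669 for FIBP siRNA 6 (without its first library) and 1730 (without the first control), 1757 for TMEM259 siRNA 5 (without its second library) and 1514 (without the first control), 1080 for TMEM259 siRNA 6 (without its first library), 1326 (without the first control) and 1362 (without the second), and 2429 between the TMEM259 siRNAs (without the first siRNA 6 library). Libraries with the same number in different groups did not deviate together (correlations from -0.06 to 0.05), so the numbers were not taken as pairs. With the replicate block, 5874 genes were called between the DDX39A siRNAs, against 5903 without it, and no member's call changed. The lowest counts behind a member were 28 reads for CLEC4E and 29 for PLEK, and what size of difference these allow to be called was not tested.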
